A study of Mus musculus with 18 samples.

Results

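The genes described here build and run cilia, and were taken by name from the deposited table of gene expression in motor cortex astrocytes. The names covered the intraflagellar transport genes (Ift), the Bardet-Biedl syndrome genes (Bbs), the Tubby-like genes (Tulp), the axonemal dyneins (Dnah, Dnaic, Dnali1), the radial spoke genes (Rsph), the roadblock light chains Dynlrb1 and Dynlrb2, and Ccdc39, Ccdc40, Dyx1c1, Foxj1 and Arl13b. They found 53 of the 23924 genes read. The names were chosen by what is known of the genes, with the fold changes of Dyx1c1 and Dynlrb2 in these libraries already in view, so the values of these 2 genes are a description. By name, 23 belong to primary cilium transport (Ift, Bbs and Tulp3), 24 to the motile cilium (Dnah, Dnaic, Dnali1, Rsph, Ccdc39, Ccdc40, Dyx1c1 and Foxj1), and 6 to neither class (Arl13b, Dynlrb1, Dynlrb2, Tulp1, Tulp2 and Tulp4).

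Most cells of the brain, astrocytes and neurons among them, carry a single immotile primary cilium, which receives signals such as Sonic hedgehog and neuropeptides. Intraflagellar transport trains carry cargo along it, the IFT-B complex outward with kinesin-2 and the IFT-A complex back with dynein-2, while the BBSome and TULP3 control which receptors enter and leave. Motile cilia beat by means of axonemal dynein arms, radial spokes and a central pair, are switched on by the transcription factor FOXJ1, and in the brain belong to ependymal cells and, in modified form, to the choroid plexus.

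The study took astrocytes from the primary motor cortex (M1) of wild-type C57BL/6 mice that learned to push a lever on a cue for water. It compared untrained mice (Naive, 12 to 21 weeks old), mice after 3 days of training (Novice, 11 to 13 weeks) and fully trained mice (Expert, 13 to 15 weeks), with 6 libraries of stranded total RNA per group. Each group was labelled as 2 female and 4 male. The labels do not tie each library to a separate animal, so the tests below measure the spread between libraries, and the labels do not say how the astrocytes were isolated.

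Values are read as FPKM, the fragments of a gene scaled to its transcript length and to a total of the library, so levels can be compared between genes. The unit was taken from the values, and how libraries were scaled to each other is not given. The 12 astrocyte markers summed to between 1453 and 7388 FPKM in a library, and none was listed at 0 throughout a group. Their sum had a median of 3684 FPKM over the Naive, 1721 over the Novice and 3648 over the Expert libraries. Library depth is unknown. From the low values of 17 libraries, 1 fragment on 1 kb of transcript was worth between 0.604 and 1.88 FPKM. Expert 3 had too few such low values for the step to be read. The sex-linked transcripts Xist and Ddx3y went against the labelled sex in Novice 1 and Novice 3. Without these 2 libraries the medians of both cilium classes and 19 fold changes of 10 single cilium genes kept their sign. For Dyx1c1 in Novice against Naive and Tulp3 in Expert against Novice it could not change, as those groups did not overlap.

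A second measure of each library bears on genes this low. The 1420 olfactory and vomeronasal receptor genes, which cortical astrocytes are not known to use, averaged between 3.93 and 5.69 FPKM in 8 libraries, against 0.251 to 2.74 FPKM in the other 10. The 8 libraries with the higher silent gene signal were 2 Naive, 4 Novice and 2 Expert. In Expert 3 the signal was 0.251 FPKM, and without it the lower end of the 10 libraries was 1.26 FPKM.

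Sequences were read for the promoters, since the regulatory factor X (RFX) proteins act on ciliary genes through a promoter element, the X-box. RefSeq windows on GRCm38.p6, from 250 bases before to 50 bases after a gene's start, were at hand for 47 of the 53 genes. The deposited values were made on the older build mm9, and no coordinate of that build is used. The X-box was searched on both strands as GTNNCC, 0 to 3 further bases, and NGNAAC. It was found in 13 of the 47 genes (27.7%), against 1056 of the 16745 genes of the deposited table that have a window (6.31%) and 1606 of all 27025 genes with a window (5.94%). The share was 6 of 20 for primary cilium transport and 5 of 21 for the motile cilium. The other 2 were Dynlrb2 and Tulp4. The genes of the motile class were Dnah9, Dnah17, Dnaic1, Dnaic2 and Rsph3b, and those of primary cilium transport were Bbs1, Bbs4, Bbs7, Ift22, Ift57 and Ift74. A forkhead motif, GTAAACA on either strand, was in 1 of the 47 windows (2.13%), against 3.47% of the genes of the table. CCAAT, on either strand, was in 23 of 47 (48.9%) against 42.1%. Neither Dyx1c1 nor Tulp3 had the X-box letters in its window, which says nothing of the factors themselves.

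The following stretches show the match in the gene whose level differed most between groups, in 3 axonemal dynein genes and in 2 transport genes. Each is read 5′ to 3′ on the gene's strand, with the X-box match in capitals. The coordinates are those of the whole printed stretch, and the position after the strand is that of the first matched base, relative to the start. The Dynlrb2 stretch is chr8:116504944-116504996 (plus strand, -51).
Dynlrb2: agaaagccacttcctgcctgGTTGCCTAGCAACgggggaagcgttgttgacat
The Dnaic2 stretch is chr11:114727366-114727418 (plus strand, -33).
Dnaic2: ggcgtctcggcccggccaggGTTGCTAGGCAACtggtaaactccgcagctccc
The Dnaic1 stretch is chr4:41569755-41569807 (plus strand, -19).
Dnaic1: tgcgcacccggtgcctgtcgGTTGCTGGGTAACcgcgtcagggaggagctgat
The Dnah9 stretch is chr11:66168601-66168653 (minus strand, -82).
Dnah9: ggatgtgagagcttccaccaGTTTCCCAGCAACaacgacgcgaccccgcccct
The Bbs7 stretch is chr3:36613477-36613530 (minus strand, -121).
Bbs7: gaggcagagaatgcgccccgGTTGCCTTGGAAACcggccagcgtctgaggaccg
Ift57 held 2 matches, and the stretch around that nearer the start is chr16:49699214-49699266 (plus strand, -60).
Ift57: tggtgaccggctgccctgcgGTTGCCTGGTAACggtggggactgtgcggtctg
The matches in Dynlrb2 and Dnaic2 spell GTTGCCTAGCAAC and GTTGCTAGGCAAC, which are reverse complements of each other. A match describes the letters of a window and is neither a binding site nor a cause of any level given here.

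Primary cilium transport genes stood at higher levels than motile cilium genes. Mean levels over all libraries had a median of 5.55 FPKM among the 23 transport genes and 2.02 FPKM among the 24 motile genes. Ift27 (19.7 FPKM), Ift20 (17.5 FPKM) and Ift46 (13.7 FPKM), all subunits of IFT-B, had the highest transport levels. Bbs10 (2.16 FPKM) and Bbs12 (1.46 FPKM), chaperonin-like proteins that help to assemble the BBSome, had the lowest. By complex, the median level was 6.59 FPKM for 11 IFT-B genes, 4.40 FPKM for 3 IFT-A genes and 4.53 FPKM for 6 BBSome genes.

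Motile genes spanned a lower and narrower range. Rsph9 (4.65 FPKM), Dnaic1 (3.71 FPKM) and Rsph1 (3.59 FPKM), which encode 2 radial spoke proteins and a dynein intermediate chain, were highest. Rsph3a (1.08 FPKM) and Rsph3b (0.367 FPKM) were lowest, and because these 2 radial spoke genes are near-identical copies their split is uncertain. The 5 outer arm heavy chains (Dnah5, Dnah8, Dnah9, Dnah11 and Dnah17) had levels of 1.37 to 2.43 FPKM, and the 6 inner arm heavy chains (Dnah1, Dnah2, Dnah6, Dnah7a, Dnah7b and Dnah10) 1.12 to 2.06 FPKM. The inner arm set holds the similar copies Dnah7a and Dnah7b, whose reads could also be divided either way.

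Of the 6 genes in neither class, Dynlrb1, a light chain shared by cytoplasmic dyneins throughout the cell, was the highest at 67.3 FPKM. Tulp4 reached 19.3 FPKM, Dynlrb2, the second roadblock light chain, 5.89 FPKM, and Arl13b, a small GTPase of the ciliary membrane, 4.65 FPKM. Tulp2 stood at 3.28 FPKM and Tulp1, known from photoreceptors, at 2.09 FPKM. Arl13b averaged 4.73 ± 0.871 FPKM over the Naive, 4.56 ± 0.766 over the Novice and 4.66 ± 1.46 over the Expert libraries (SD, n = 6 each). Ift88, an IFT-B subunit needed for cilium assembly, averaged 3.58 ± 2.21, 3.90 ± 1.68 and 3.72 ± 0.553 FPKM in the same order.

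**Figure D1:**
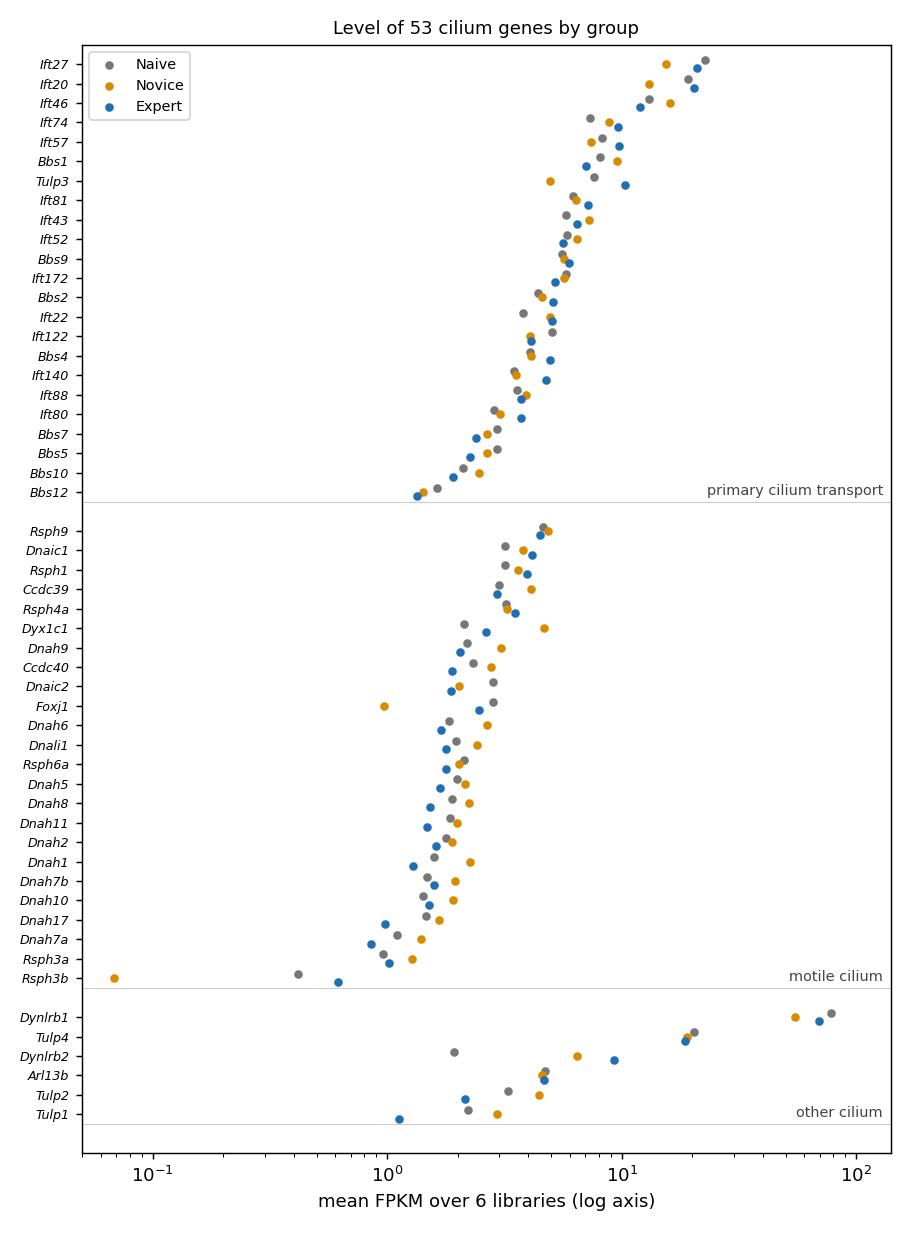
Mean FPKM of each of the 53 cilium genes (log axis) in the 6 Naive, 6 Novice and 6 Expert libraries, sorted by level within each class. Transport genes reach 19.7 FPKM (Ift27, mean over all libraries) and motile genes 4.65 FPKM (Rsph9).

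The level of the motile genes moved with the silent gene signal of the library, and so did the median of all genes read. That median stood at 4.14 to 4.75 FPKM in the 8 libraries with the higher signal, against 1.92 to 3.49 FPKM in the other 10. The median motile gene stood at 1.95 to 3.02 FPKM in the 8 libraries with the higher signal, against 0.785 to 1.81 FPKM in the other 10, and these ranges did not overlap. The median transport gene stood at 3.71 to 5.68 FPKM in the 8 libraries, against 4.22 to 6.55 FPKM in the 10, and these ranges did overlap. The ratio of the transport to the motile median was 1.44 to 2.59 in the 8 libraries, against 3.24 to 7.16 in the 10.

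The motile genes were set against the spread of the silent genes in each library. In the 8 libraries with the higher signal, 0 or 1 of the 24 motile genes exceeded the 90th percentile of the silent genes, against 4 to 11 of the 23 transport genes. In 9 of the other 10 libraries the counts were 0 to 7 motile and 14 to 21 transport genes. Expert 3, with the lowest silent signal, had 20 motile and 23 transport genes above that percentile, and its median motile gene was at 1.15 FPKM. Above the median of the silent genes, a lower bar, lay 8 to 18 of the 24 motile genes in the 8 libraries and 12 to 24 in the other 10. Whether motile transcripts came from astrocytes or from other cells was not tested.

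The 14 ependymal markers and 10 choroid plexus markers summed to far less than the astrocyte markers. The sum of the ependymal markers ranged from 46.8 to 103 FPKM over the Naive libraries, from 32.6 to 105 FPKM over the Novice libraries and from 39.2 to 86.3 FPKM over the Expert libraries. That of the choroid plexus markers ranged from 27.0 to 128, from 41.9 to 174 and from 28.9 to 134 FPKM in the same order. None of these markers was at 0 throughout a group. The silent genes also averaged 0.251 to 5.69 FPKM in a library, so a value above 0 alone does not show expression. In bulk libraries, fewer cells of a type and less RNA per cell cannot be told apart.

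**Figure D2:**
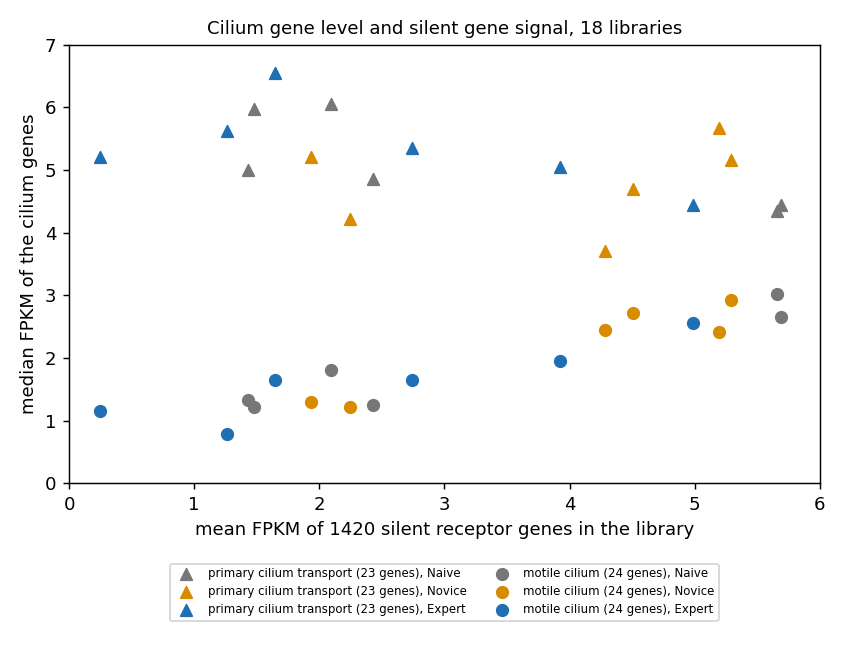
Median FPKM of the transport genes (triangles) and of the motile genes (circles) against the mean FPKM of 1420 silent receptor genes, 1 point per library and class. The motile median runs from 0.785 to 3.02 FPKM and lies above 1.81 FPKM in the 8 libraries on the right, while the transport median has no such gap.

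No cilium gene passed the test in any comparison. With limma on log2(FPKM + 1), adjusted by Benjamini-Hochberg over 21745 genes, 0 genes (0%) had an adjusted p under 0.05 in each of the 3 comparisons. The smallest adjusted p lay at 0.890 where Novice was set against Naive. For Expert it was 0.9996 against Naive and 0.449 against Novice. The filter of 1 FPKM in at least 6 libraries kept 52 of the 53 genes and left out Rsph3b. The comparisons share their libraries, so their values below are set side by side and are not separate evidence. Fold changes are on the log2(FPKM + 1) scale, which understates the change of low genes.

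Novice against Naive asks what the first days of training changed. At an unadjusted p under 0.05, 592 genes were higher in Novice (2.72%) and 408 lower (1.88%). Of the 52 cilium genes, 2 were higher at that level, Dyx1c1 and Dynlrb2, and 1 was lower, Tulp3. Motile genes had a higher Novice mean in 18 of 23 cases, against 57% of all genes. Their median log2 fold change was 0.23, against 0.07 over all genes and 0.24 over other genes of like level (described below). The share of those like-level genes with the higher mean was not counted in any comparison. All 5 outer arm and 6 inner arm heavy chains had the higher mean in Novice, with log2 fold changes of 0.04 to 0.38 and 0.09 to 0.37. All 10 choroid plexus markers also had the higher mean in Novice (median log2 fold change 0.50), as did 9 of 14 ependymal markers (0.16), while 0 of 12 astrocyte markers did (-0.57). The choroid plexus markers summed to 68.9 to 174 FPKM in the 8 libraries of higher silent gene signal, 4 of them Novice. In the other 10 the sum was 27.0 to 66.0 FPKM, save 128 FPKM in Naive 3. The ependymal sums overlapped, at 63.4 to 105 FPKM in the 8 and 32.6 to 99.9 FPKM in the 10. The part of the choroid plexus, ependymal and astrocyte markers in the cilium gene values was not tested. Transport genes had the higher mean in 12 of 23 cases, with a median of 0.03, or -0.03 when libraries were scaled by a trimmed mean of M values (TMM).

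Other genes of like level had a similar median. The 4209 other genes between the quartiles of the motile levels (1.73 to 2.79 FPKM) had a median log2 fold change of 0.24 in Novice against Naive. Among the libraries of higher silent gene signal (4 Novice, 2 Naive) the motile median was -0.02, and among the others (2 Novice, 4 Naive) it was 0.02. With the silent signal as a covariate it was 0.06.

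The effect of full training was read from Expert against Naive. Unadjusted, 312 genes were higher in Expert (1.43%) and 310 lower (1.43%), and 1 cilium gene, Dynlrb2, was among the higher. No cilium gene had groups that did not overlap, as 8 genes higher (0.0368%) and 9 lower (0.0414%) had over the whole table. Motile genes had a higher Expert mean in 8 of 23 cases and transport genes in 13 of 23, against 43.9% of all genes. All 8 endothelial markers had the higher mean in Expert (median log2 fold change 0.64), and 5 of them had an unadjusted p under 0.05. The median log2 fold change was -0.06 for motile genes (0.02 with TMM scaling, 0.06 with the silent signal as a covariate) and 0.06 for transport genes, against -0.05 over all genes. The lowest unadjusted p below Naive belonged to Dnaic2, the second dynein intermediate chain (-0.41 ± 0.28 SE), Ift122, a subunit of IFT-A (-0.29 ± 0.21), and Tulp1 (-0.55 ± 0.42).

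Expert against Novice compares the late with the early stage. Unadjusted, 1061 genes were higher in Expert (4.88%) and 1299 lower (5.97%). Of the 52 cilium genes, Tulp3 alone was among the higher, and only Dyx1c1 and Tulp1 were among the lower. Motile genes had a higher Expert mean in 4 of 23 cases and transport genes in 12 of 23, against 40.4% of all genes. None of the outer arm and inner arm heavy chains had the higher mean in Expert. Among choroid plexus markers 1 of 10 did (median log2 fold change -0.63), whereas 8 of 14 ependymal markers did (0.10). The motile median was -0.27, beside -0.39 for the 4209 other genes of like level and -0.14 for all genes. Within the libraries of higher silent signal it was -0.06, within the others 0.04, and with the covariate 0.01. TMM scaling gave -0.18 for the motile genes and -0.02 for all genes.

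**Figure D3:**
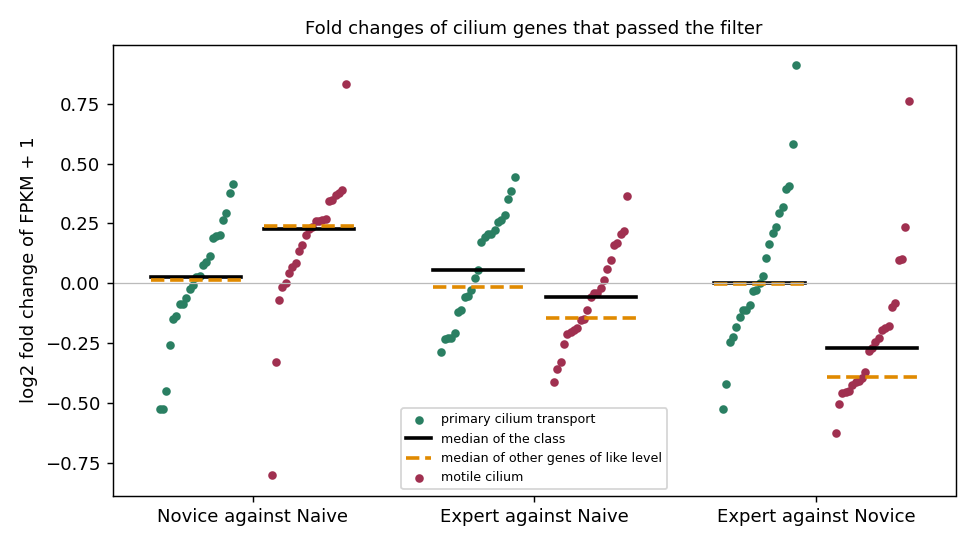
Log2 fold change of FPKM + 1 of each transport gene (green) and motile gene (red) in the 3 comparisons, with the class median (black line) and the median of other genes of like level (dashed line). The motile medians of 0.23, -0.06 and -0.27 are drawn beside those of other genes of like level, 0.24, -0.14 and -0.39, and the -0.06 became 0.02 with TMM scaling.

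Dyx1c1 had the smallest unadjusted p of the cilium genes in Novice against Naive. Its product helps to assemble dynein arms in the cytoplasm before they are carried into motile cilia. The lowest, median and highest levels were 2.79, 4.77 and 6.20 FPKM in Novice libraries, against 1.81, 2.02 and 2.68 FPKM in Naive libraries. Every Novice library lay above every Naive library, as for 14 genes higher in Novice over the whole table (0.0644%). In Expert libraries the lowest, median and highest were 1.90, 2.57 and 3.83 FPKM, which overlap both other stages.

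The log2 fold change of Dyx1c1 was 0.83 ± 0.19 (SE) in Novice against Naive, 0.20 ± 0.19 in Expert against Naive and -0.63 ± 0.19 in Expert against Novice, with limma adjusted p of 0.890, 0.9996 and 0.449. The Novice against Naive difference was 0.81 in the libraries of higher silent signal (4 Novice, 2 Naive) and 0.70 in the others (2 Novice, 4 Naive). As these groups did not overlap, neither difference could fall below 0, and their shared sign is no further evidence. On the longest coding transcript the levels correspond to about 5.52 to 14.2 fragments in Novice, against 2.21 to 5.22 fragments in Naive, so each rests on few reads. Its exons overlap those of Gm44503 on the same strand, and reads of the 2 genes may not have been separated.

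Tulp3 showed its contrast between the trained stages. TULP3 works with IFT-A to bring receptors and membrane proteins into the primary cilium and restrains Sonic hedgehog signalling. Its lowest, median and highest levels were 7.43, 9.72 and 16.4 FPKM in Expert libraries, against 3.41, 5.36 and 6.02 FPKM in Novice libraries. Every Expert library lay above every Novice library, as for 55 genes higher in Expert over the whole table (0.253%), whereas none of the 39 genes lower without overlap (0.179%) was a cilium gene. Naive libraries, at 5.43, 7.12 and 12.1 FPKM, overlapped both. All 12 astrocyte markers (median log2 fold change 0.76, 5 at an unadjusted p under 0.05) and all 8 endothelial markers (0.53, 4 at that level) also had the higher mean in Expert against Novice, and their part in the Tulp3 values was not tested. The endothelial markers summed to 217 to 610 FPKM in Expert, against 146 to 358 FPKM in Novice libraries.

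The log2 fold change of Tulp3 was -0.53 ± 0.21 (SE) in Novice against Naive, 0.39 ± 0.21 in Expert against Naive and 0.91 ± 0.21 in Expert against Novice, with limma adjusted p of 0.890, 0.9996 and 0.449. Expert against Novice was 0.91 in the libraries of higher silent signal (2 Expert, 4 Novice) and 0.74 in the others (4 Expert, 2 Novice). It was 0.78 without Expert 3, which held the highest value. As the Expert and Novice libraries did not overlap, none of these values could fall below 0, and their shared sign is no further evidence. The levels correspond to about 19.2 to 53.7 fragments in Expert, leaving out Expert 3, and 7.58 to 28.0 in Novice libraries. No other transport gene had an unadjusted p under 0.05 in any comparison, and the IFT-A subunit Ift140 came next in Expert against Naive at 0.35 ± 0.20.

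Dynlrb2 was above 0 in every trained library. Of the 6 Naive libraries, 4 had it at 0 and the other 2 at 2.73 and 8.85 FPKM. Novice libraries ranged over 1.81, 5.60 and 12.7 FPKM (lowest, median and highest) and Expert libraries over 4.50, 7.95 and 16.5 FPKM. Naive 3, at 8.85 FPKM, lay within the range of both trained stages, and Naive 4, at 2.73 FPKM, within that of the Novice libraries. The related light chain Dynlrb1 had medians of 81.5, 49.0 and 72.8 FPKM in Naive, Novice and Expert libraries.

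The log2 fold change of Dynlrb2 was 1.82 ± 0.54 (SE) in Novice against Naive and 2.37 ± 0.54 in Expert against Naive, with limma adjusted p of 0.890 and 0.9996. These values depend on the pseudocount. At 0.1 they were 3.87 and 4.52, and at 5 they were 0.76 and 1.10. The counts behind them were very small. On the longest coding transcript of 527 bases the levels correspond to about 1.30 to 4.002 fragments in Novice, 2.65 to 10.7 in Expert and 0 to 5.28 in Naive libraries, leaving out Expert 3. Within the libraries of higher silent signal the Novice against Naive difference was 3.11 and within the others 0.56.

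Foxj1, unlike the dynein heavy chains, had the lower mean in Novice against Naive. Its level was 0 to 1.48 FPKM in Novice libraries, with a median of 1.23, against 0.539 to 6.26 FPKM in Naive libraries, with a median of 2.36. In Expert libraries it was 0.593 to 4.67 FPKM, with a median of 2.07. The log2 fold change was -0.80 ± 0.40 (SE) in Novice against Naive and 0.76 ± 0.40 in Expert against Novice, with limma adjusted p of 0.890 and 0.449. Novice against Naive was -1.76 in the libraries of higher silent signal and -0.36 in the others, and it ranged from -1.02 without Naive 2 to -0.57 without Naive 6. The 3 groups overlapped, and the levels correspond to about 0 to 4.40 fragments in Novice and 1.72 to 10.55 fragments in Naive libraries.

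Ccdc39 and Ift27 came next by unadjusted p in Novice against Naive. Ccdc39, which with Ccdc40 sets the repeat length of the axoneme, averaged 4.11 ± 0.540 FPKM in Novice and 2.99 ± 1.07 FPKM in Naive libraries (SD, n = 6 each), a log2 fold change of 0.39. Ift27 averaged 15.4 ± 4.36 FPKM in Novice and 22.6 ± 9.19 FPKM in Naive libraries, a log2 fold change of -0.45. Neither passed the test. Tulp1 averaged 1.12 ± 1.05 FPKM in Expert and 2.93 ± 1.80 FPKM in Novice libraries.

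**Figure D4:**
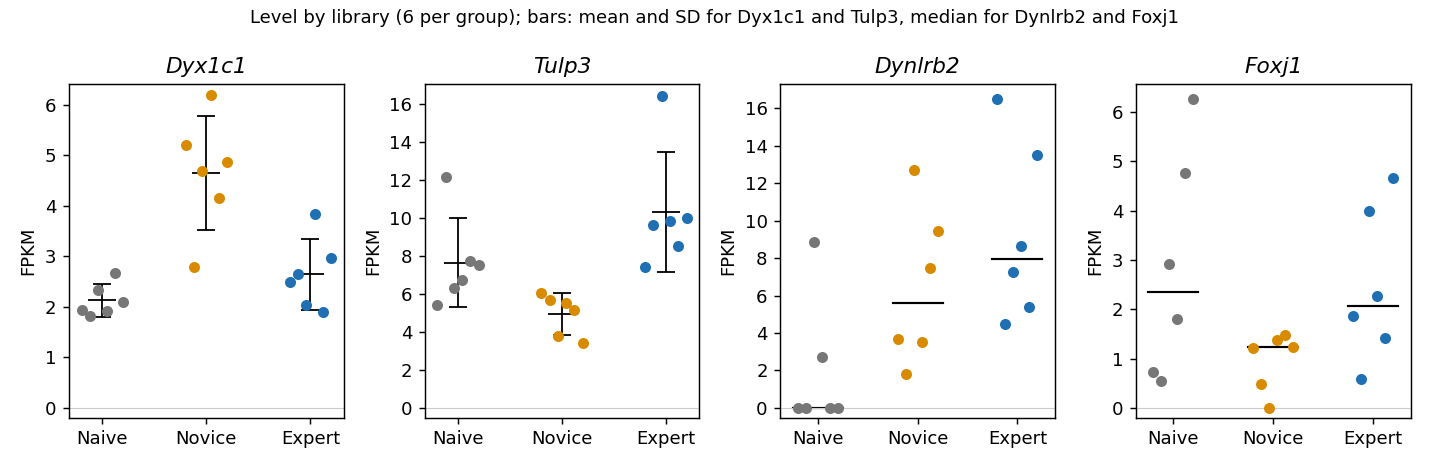
FPKM of Dyx1c1, Tulp3, Dynlrb2 and Foxj1 in each of the 18 libraries, with the mean and SD of 6 libraries for Dyx1c1 and Tulp3 and the median for Dynlrb2 and Foxj1, which hold values at 0. Dyx1c1 is at 2.79 FPKM or above in every Novice and at 2.68 FPKM or below in every Naive library, and Tulp3 is at 7.43 FPKM or above in every Expert and at 6.02 FPKM or below in every Novice library.

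Other genes of the ciliary machinery gave no call either. At an adjusted p under 0.05, limma called 0 of 17 further transport and motor genes, 0 of 16 further BBSome and ciliary membrane genes, 0 of 25 transition zone and basal body genes, 0 of 16 dynein arm assembly and docking genes, 0 of 18 central pair and other axoneme genes and 0 of 13 multicilia and RFX regulators. Their median log2 fold changes in Novice against Naive lay between -0.08 and 0.06. In Expert against Novice they lay between -0.25 (the regulators) and 0.06.

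At an unadjusted p under 0.05, 1 of these 105 genes was higher (0.952%, against 2.72% of all genes) and 3 were lower (2.86%, against 1.88%) in Novice against Naive. The higher was Sstr3, a somatostatin receptor of the primary cilium, and the lower were Ttc30b, an IFT-B partner, Rfx4, an RFX factor of neural cells, and the transition zone gene B9d1. In Expert against Naive 2 were higher (1.90%, against 1.43%), the transition zone genes Tctn3 and Cc2d2a, and 0 were lower. In Expert against Novice 2 were higher (1.90%, against 4.88%) and 4 lower (3.81%, against 5.97%). Counts of this size are near the shares over all genes and are no result about these genes. Of single genes, Cc2d2a averaged 9.66 FPKM in Expert and 5.83 FPKM in Novice libraries, with a log2 fold change of 0.63 ± 0.19 (SE) and the limma adjusted p at 0.449.

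Placement on the genome limits some of these values. On the GRCm38 annotation, exons of 2 of the 53 genes overlap another gene on the same strand (Dyx1c1 with Gm44503, Bbs12 with Gm43439) and those of 20 overlap a gene on the opposite strand. Whether counting used the strand is not stated in the labels.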

How the data were processed

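Expression was read from 1 deposited table of 23951 entries for 18 libraries; 27 entries with date-like names were left out. The authors' values are FPKM, a unit taken from the values since the table's title speaks of normalized counts. Per the submitters' processing notes, TopHat and Cufflinks were used with build mm9; versions, the annotation, strand and multi-read handling and any scaling between libraries are not given in the sources. Values under 0.001 FPKM counted as 0 only where libraries at 0 were counted, and the fitted values were left as deposited.

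Genes that reached 1 FPKM in 6 or more libraries were fitted with limma 3.58.1 (R 4.3.3) on log2(FPKM + 1), with a mean per group, an intensity trend and Benjamini-Hochberg adjustment (two-sided, threshold 0.05). The fit was tested on simulated data. Depth per library is unknown. Fragment numbers are approximate. They are the FPKM value times the length of the longest coding transcript, divided by the value of 1 fragment on 1 kb, which was read from 177 silent genes with a single transcript, of whose low values 63.5% to 76.4% were whole multiples within 0.1.

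The genes and lists were chosen with earlier results of these data known, Dyx1c1 and Dynlrb2 included. Genes were named by the 3 smallest p per direction and comparison, the 3 highest and 2 lowest levels per class, 7 fixed genes, and 2 genes per other list; B9d1, Ift57, Bbs7, Dnah9 and the further genes with an X-box were named after their values or matches were seen, and so was the split of libraries by silent gene signal. The alternatives were other pseudocounts and filters, a trimmed mean of M values (TMM) without weights, a covariate, a replicate block and leaving out libraries.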

Additional observations from a re-analysis of the deposited data

Results flagged for a closer look

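In groups of 6 libraries, 6 of 72 sets of values (24 genes in 3 groups) held a library whose gap to the nearest other exceeded Dixon's 95% critical value. Chance alone marks about 1 set in 20.

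Dynlrb2 stood at 8.85 FPKM in Naive 3, where the next Naive library had 2.73 FPKM and the others 0. Tulp3 stood at 12.1 FPKM in Naive 2, with 7.74 FPKM next. Tulp3 was also high in Expert 3, at 16.4 FPKM with 9.9995 FPKM next, in the library that had the lowest silent gene signal. Dnaic2 stood at 3.86 FPKM in Expert 1, with 1.90 FPKM next. Rsph3b, which missed the filter, had 0.410 FPKM in Novice 1, with every other Novice library at 0. Tulp4 stood at 30.3 FPKM in Expert 2, with 17.7 FPKM next. The causes were not tested.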

How the results depend on the processing

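Under every alternative limma called 0 genes in each comparison, and the 19 gene folds kept their sign wherever the gene was fitted. The filter of 5 FPKM left several of these genes unfitted, Dyx1c1 and Foxj1 among them. At an unadjusted p under 0.05, 1000 genes differed in Novice against Naive, 622 in Expert against Naive and 2360 in Expert against Novice. Leaving out single libraries gave 646 (without Naive 2) to 1761 (without Naive 5), 404 (without Expert 6) to 964 (without Expert 4) and 968 (without Expert 3) to 4362 (without Expert 4). The covariate gave 1279, 1200 and 1049, the filter of 5 FPKM 485, 354 and 1467 among 11141 genes.

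The motile medians of 0.23, -0.06 and -0.27 ranged over 0.12 to 0.30, -0.20 to 0.03 and -0.37 to -0.16 when single libraries were left out. The second was 0.03 without Naive 5, and the last was smallest without Expert 3. With the silent signal as covariate the medians were 0.06, 0.06 and 0.01, so the sign of the last 2 depends on it. TMM scaling gave 0.19, 0.02 and -0.18. It moved the median of all genes from -0.14 to -0.02 in Expert against Novice. A filter of 5 FPKM left 1 motile gene. The transport medians stayed between -0.05 and 0.17, with either sign.

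Replicate numbers did not pair the libraries. Correlations of same-numbered libraries ran from -0.36 to 0.46, with 10 of 18 above 0.1 and 2 of 18 best with their own number. With replicate number as a block, unadjusted counts were 1221, 761 and 2963 genes and adjusted calls 0. Depth limits Dynlrb2, Foxj1 and Dyx1c1, which rest on few fragments, and other named genes as well. Leaving out Expert 3, the median over libraries was about 5.26 fragments for Dyx1c1. It was about 4.18 for Rsph9, 3.85 for Rsph1, 4.2 for Bbs10, 2.71 for Bbs12, 3.6 for Tulp1 and 5.88 for Dnaic2.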
